A study of Homo sapiens with 4 samples.

Results

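The genes described here encode 10 integrin subunits, 6 alpha chains (ITGA1, ITGA2, ITGA3, ITGA5, ITGA6 and ITGAV) and 4 beta chains (ITGB1, ITGB3, ITGB5 and ITGB8), out of 21469 genes measured. They are a named set, found by symbol. A gene was represented by an array row that the platform annotation assigns to that symbol alone, and where several rows qualified, by the row with the highest mean over all arrays. All 10 genes had such a row. Expression was measured in U2OS cells, a human osteosarcoma line, on 4 Affymetrix Human Transcriptome 2.0 arrays, 2 of cells treated with nocodazole and 2 of cells treated with the solvent DMSO, each for 48 h. Nocodazole is a microtubule poison that arrests cells in mitosis. Both groups had first been starved of serum for 24 h, held in thymidine for 24 h and released for 3 h, and both were detached with trypsin before RNA was extracted. PLKO.1, a name in every sample title, is left unexplained by the labels. The series title asks whether cells that slip out of mitotic arrest without dividing turn on the senescence-associated secretory phenotype, a programme of secreted factors, and nocodazole against DMSO is the comparison its design gives.

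Integrins are cell-surface receptors made of 1 alpha and 1 beta chain that bind the extracellular matrix outside the cell and, through adaptor proteins, the actin cytoskeleton inside it. The alpha chain largely sets which matrix protein is bound. ITGA1 and ITGA2 pair with ITGB1 to form collagen receptors, and ITGA3 and ITGA6 form laminin receptors. ITGA5 with ITGB1, and ITGAV with ITGB1, ITGB3, ITGB5 or ITGB8, recognise the arginine-glycine-aspartate (RGD) motif of fibronectin, vitronectin and the latent form of TGF-beta. Adherent cells such as osteosarcoma cells hold on to their substrate through these receptors, and cells that round up in mitosis loosen many of those contacts.

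Of the 10 integrin genes, 1 rose with nocodazole and 0 fell. The gene that rose was ITGA2, the alpha chain of the main collagen receptor of epithelial cells and platelets, which was 1.87-fold higher in nocodazole-treated cells than in DMSO-treated cells. ITGB8, a partner of ITGAV in the activation of latent TGF-beta, had the lowest ratio of the set, 0.581, and did not pass the test. The other 8 genes had ratios between 0.801 and 1.27 and did not pass either. A gene is said to have risen or fallen where limma gave an adjusted p under 0.05 and the same direction on both scales used here, the values as deposited and the values after quantile normalization of the 4 arrays. By that rule 0.149% of all genes rose and 0.0978% fell. In RNA from whole cultures, a change in RNA per cell cannot be told apart from a change in the share of cells that express the gene.

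The quantile-normalized scale is used for levels and changes unless the deposited one is named, because the deposited arrays were not on a common level. The array medians over all genes were 5.87 and 5.68 with nocodazole and 6.38 and 6.06 with DMSO, for replicates 2 and 3 in each group. The median change of all genes, nocodazole minus DMSO, was accordingly -0.45 on the log2 scale as deposited, and -0.01 after quantile normalization. Array background, taken as the median of 23 antigenomic control rows, was 4.36 and 3.72 with nocodazole and 4.81 and 4.02 with DMSO. It marks the level of unmatched probes and does not show that a gene above it is expressed: 6 of 7 haematopoietic marker genes also lay above it on all arrays, PTPRC being the exception, as did 2 of 5 endothelial ones. The mesenchymal genes VIM, CDH2, FN1 and S100A4 and 7 of 8 osteoblast-lineage genes, all but IBSP, were above it on all 4 arrays, and so were 6 of 6 epithelial genes, of which KRT8 and KRT18 were bright. Correlations between arrays over all genes were 0.975 to 0.983, and 0 genes had identical values on any 2 arrays.

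The promoters of the 2 collagen-receptor alpha chains of the set are shown first. ITGA1 and ITGA2 lie close together on chromosome 5, with PELO as the only protein-coding gene start between them. Their changes, given further on, had overlapping 95% intervals, and the difference between the 2 genes was not tested. Each sequence is the 250 bases before the RefSeq gene start (build GRCh38.p14, plus strand), 5′ to 3′, with capitals marking GC boxes, the letters GGGCGG on either strand, which Sp-family transcription factors are known to bind.
ITGA2, chr5:52989102-52989351: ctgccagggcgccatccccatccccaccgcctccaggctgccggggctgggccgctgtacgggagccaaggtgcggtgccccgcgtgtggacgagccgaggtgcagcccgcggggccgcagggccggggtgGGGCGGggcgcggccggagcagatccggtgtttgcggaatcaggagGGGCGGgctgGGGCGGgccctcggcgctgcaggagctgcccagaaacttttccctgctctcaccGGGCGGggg
ITGA1, chr5:52787666-52787915: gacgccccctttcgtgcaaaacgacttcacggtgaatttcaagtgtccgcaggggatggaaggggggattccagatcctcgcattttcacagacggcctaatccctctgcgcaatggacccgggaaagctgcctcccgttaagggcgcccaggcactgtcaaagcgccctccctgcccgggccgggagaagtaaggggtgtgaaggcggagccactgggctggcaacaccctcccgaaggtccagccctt
The ITGA2 window held 4 GC boxes, none overlapping another, and the ITGA1 window held 0. The windows at the gene starts of ITGB1, ITGB5 and ITGA5 held 3, 2 and 1 GC boxes, and those of ITGA6 and ITGAV held 0. Windows at other listed starts held 3 GC boxes for ITGA6, 0 and 3 for ITGB5, and 0 for ITGAV and ITGB1. The ITGB8 window, which is not at the RefSeq gene start, held 2. None of these genes passed the test. Of 35116 RefSeq promoter windows of this length, 42.6% held at least 1 GC box and 7.63% held at least 4. G and C made up 76.4% of the ITGA2 window and 62% of the ITGA1 window, against a median of 58% over all windows. The AP-1 letters TGANTCA, the cAMP response element letters TGACGTCA, the CCAAT box CCAAT and the TATA box TATAAA, searched on both strands, were in neither window; 6.57%, 1.65%, 32% and 10.7% of all windows held them. RefSeq promoter windows were available for 8 of the 10 integrin genes, all but ITGA3 and ITGB3. These matches describe letters only, and binding was not measured.

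Among the collagen-binding chains of the set, ITGA2 stood at 9.31 and 9.27 log2 units in nocodazole replicates 2 and 3. In DMSO replicates 2 and 3 it stood at 8.29 and 8.48. Both nocodazole arrays lay above both DMSO arrays, and the groups did not overlap. The group means were 9.29 ± 0.03 with nocodazole and 8.39 ± 0.14 with DMSO (SD, n = 2 each), and the log2 fold change was 0.90 ± 0.12 (SE; limma adjusted p = 0.0359). As deposited, where the array medians pull the other way, ITGA2 was at 8.99 and 9.11 with nocodazole and 8.50 and 8.76 with DMSO, a change of 0.42 ± 0.15 (limma adjusted p = 0.0390). It was also the 1 integrin gene whose deposited change was above 0. In rank, 113 genes of 21469 had a larger positive change. After median centring of the arrays the change was 0.84 ± 0.39 and did not pass (limma adjusted p = 0.950), and it did not pass without a variance trend (limma adjusted p = 0.182) or without any 1 of the arrays, where the change ran from 0.81 to 0.99 and limma's adjusted p from 0.320 to 0.814.

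ITGA1, the other collagen-binding chain of the set, was dim. It was at 4.34 and 4.76 in nocodazole replicates 2 and 3, against 4.20 and 4.20 with DMSO, a change of 0.35 ± 0.21 that did not pass (limma adjusted p = 0.721). Without nocodazole replicate 3 the change was 0.14, and without nocodazole replicate 2 it was 0.56. On the deposited scale it lay above array background on 2 of the 4 arrays, and its change there was -0.066 ± 0.41. ITGA1 transcripts were thus near the limit of what these arrays measured. Of these 2 chains, ITGA2 was the one with a clear signal in both groups.

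**Figure D1:**
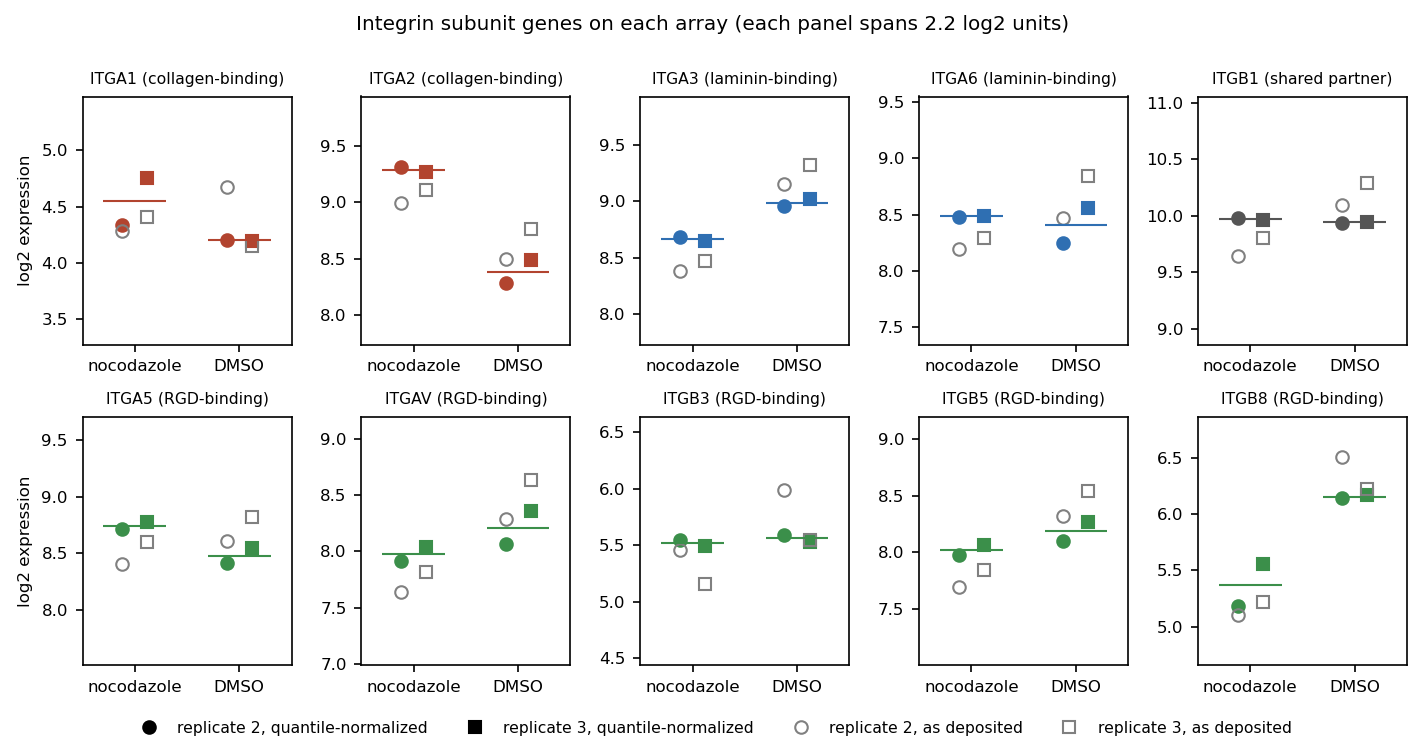
Log2 expression (vertical axis) of each integrin gene on the 2 nocodazole and 2 DMSO arrays. Filled symbols are quantile-normalized values, open grey symbols the deposited ones, circles replicate 2 and squares replicate 3, and lines the quantile-normalized group means. ITGA2 is higher on both nocodazole arrays on both scales, and ITGB8 is lower on both.

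The laminin-binding chains of the set had changes on either side of 0. ITGA3, which with ITGB1 forms a laminin receptor of epithelial and many tumour cells, was at 8.68 and 8.65 with nocodazole and 8.96 and 9.02 with DMSO. The groups did not overlap, and the log2 fold change was -0.32 ± 0.11, which did not pass (limma adjusted p = 0.370, unadjusted p = 0.0173). As deposited it was called lower, at -0.81 ± 0.15 (limma adjusted p = 0.000330). ITGA6, which pairs with ITGB1 or ITGB4, was at 8.48 and 8.49 with nocodazole and 8.25 and 8.56 with DMSO, so the nocodazole values lay between the DMSO ones. Its change was 0.080 ± 0.13 (limma adjusted p = 0.961), with a 95% interval of -0.23 to 0.39; it was -0.076 without DMSO replicate 2 and 0.23 without DMSO replicate 3. On the deposited scale ITGA6 was called lower, at -0.41 ± 0.15 (limma adjusted p = 0.0466), a change of about the size of that of all genes.

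Of the RGD-binding alpha chains, ITGA5, the fibronectin receptor chain, was at 8.71 and 8.78 with nocodazole and 8.42 and 8.54 with DMSO. Both nocodazole values were the higher ones, and the change of 0.27 ± 0.11 did not pass (limma adjusted p = 0.522, unadjusted p = 0.0470). Its deposited change had the opposite sign, at -0.22 ± 0.15. ITGAV, the chain shared by the vitronectin receptors, was at 7.92 and 8.04 with nocodazole and 8.06 and 8.36 with DMSO. The groups were apart by less than the spread between the DMSO arrays, and the change was -0.23 ± 0.14 (limma adjusted p = 0.708). It was -0.085 without DMSO replicate 3 and -0.39 without DMSO replicate 2. As deposited ITGAV was called lower, at -0.73 ± 0.15 (limma adjusted p = 0.00114).

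The beta chains that pair with ITGAV differed in size of change. ITGB8 was at 5.18 and 5.55 in nocodazole replicates 2 and 3, against 6.14 and 6.16 in DMSO replicates 2 and 3. Both nocodazole arrays were below both DMSO arrays, by more than the spread within either group. The log2 fold change was -0.78 ± 0.18, with an unadjusted p of 0.00240 that did not pass over all genes (limma adjusted p = 0.163). Of all genes, 139 had a more negative change. As deposited, ITGB8 was at 5.11 and 5.22 with nocodazole and 6.51 and 6.22 with DMSO, and it was called lower, at -1.20 ± 0.27 (limma adjusted p = 0.00226). ITGB8 was dim with nocodazole, near the leukocyte chain ITGAM, which was at 5.60 and 5.05 on the same arrays as deposited. After median centring the change was -0.79 ± 0.19 (limma adjusted p = 0.341), close to the quantile-normalized value. Left-out arrays moved it between -0.96 and -0.61, where limma's unadjusted p was under 0.05 in 4 of 4 fits, as it was for ITGA2, and the adjusted p ran from 0.656 to 0.845.

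ITGB5, a vitronectin receptor chain, was at 7.97 and 8.06 with nocodazole and 8.10 and 8.27 with DMSO, a change of -0.17 ± 0.12 (limma adjusted p = 0.802). It was -0.082 without DMSO replicate 3 and -0.25 without DMSO replicate 2. As deposited it was called lower, at -0.66 ± 0.15 (limma adjusted p = 0.00196). ITGB3, which pairs with ITGAV on bone-resorbing and tumour cells and with ITGA2B on platelets, was at 5.55 and 5.49 with nocodazole and 5.59 and 5.53 with DMSO. The ITGB3 groups overlapped, and its change was -0.041 ± 0.16, with a 95% interval of -0.40 to 0.32 (limma adjusted p = 0.987). Its deposited change of -0.46 ± 0.30 did not pass (limma adjusted p = 0.241). ITGB3 was dim too, at 5.46 and 5.16 with nocodazole as deposited.

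ITGB1, the beta chain of ITGA1, ITGA2, ITGA3 and ITGA5 and a partner of ITGA6 and ITGAV, was at 9.98 and 9.96 with nocodazole and 9.94 and 9.95 with DMSO. Its change was 0.028 ± 0.10, with a 95% interval of -0.20 to 0.26 (limma adjusted p = 0.985). The interval of the ITGA2 change, 0.63 to 1.17, lay wholly above it. The intervals were also apart as deposited. After median centring they overlapped, at -0.028 to 1.70 for ITGA2 and -1.22 to 1.11 for ITGB1. The difference between these genes was not tested. As deposited ITGB1 was called lower, at -0.47 ± 0.18 (limma adjusted p = 0.0477), and after median centring its change was -0.057 ± 0.52, so its sign depended on the scale. ITGB1 was the 1 gene of the set with more than 1 row. The dimmer rows, TC10000229.hg.1 and TC10001164.hg.1, had changes of -0.22 and -0.062. The platform annotation gives TC10000229.hg.1 the symbol ITGB1 but, unlike the other rows, no Entrez gene number. On TC10001164.hg.1 the nocodazole values were 5.92 and 5.00 and the DMSO values 5.45 and 5.59, a spread between nocodazole arrays larger than the change.

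**Figure D2:**
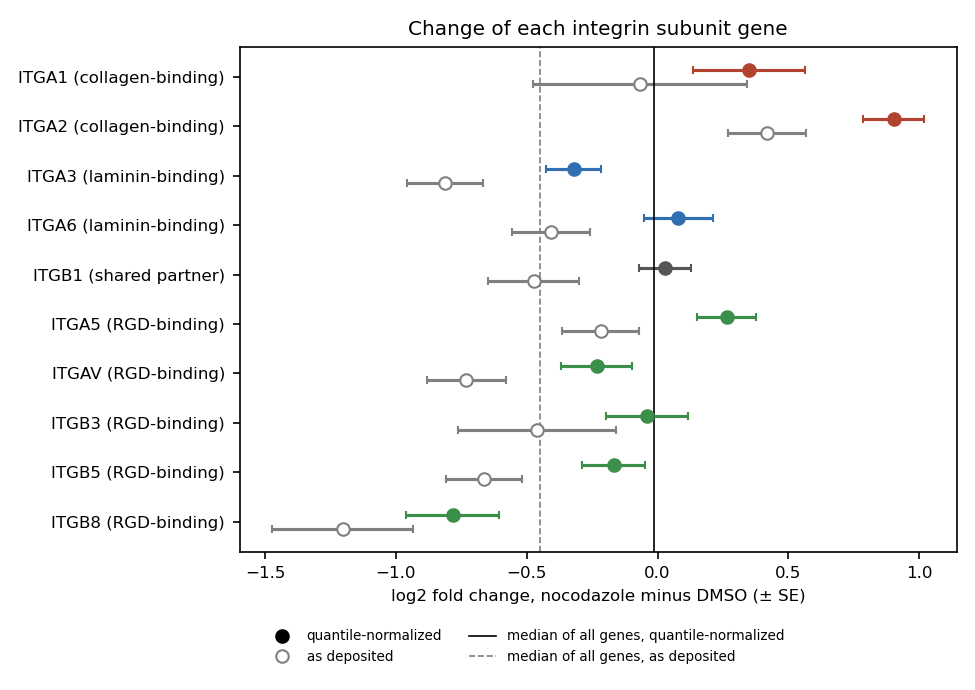
Log2 fold change, nocodazole minus DMSO, of each integrin gene (points) with limma's standard error (bars), quantile-normalized in colour and as deposited in grey. Vertical lines mark the median change of all genes, -0.01 after quantile normalization and -0.45 as deposited. ITGA2 is to the right of both lines and ITGB8 to the left of both.

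Set side by side by ligand, the collagen-binding chains of the set had a median log2 fold change of 0.63 over 2 genes. The laminin-binding chains of the set had -0.12 over 2 genes and the RGD-binding chains -0.17 over 5 genes, against -0.01 over all genes tested. Relative to the median of all genes the deposited values gave 0.62, -0.16 and -0.22, so the order of the 3 classes was the same on both scales. The collagen median rests on ITGA2 and on ITGA1, which was near background. Chains outside the set do not enter these medians. The collagen-binding chains ITGA10 and ITGA11 had changes of 0.10 ± 0.18 and 0.011 ± 0.16 (limma adjusted p = 0.966 and 0.994). ITGA7 and ITGB4, of laminin receptors, had changes of -0.062 ± 0.16 and -0.12 ± 0.15 (limma adjusted p = 0.979 and 0.942). The classes also held unlike members: the RGD-binding changes ran from -0.78 for ITGB8 to 0.27 for ITGA5. Over the 6 alpha chains the median was 0.17, and over the 4 beta chains it was -0.10. The difference between classes was not tested.

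Over the whole set, 5 genes had a quantile-normalized change above 0 and 5 below 0, and the median was -0.01. The 2 groups of arrays did not overlap for 8 of the 10 genes, where 36.5% of all genes did not overlap. Nocodazole was above DMSO for 4 of them, as for 16.4% of all genes, and below DMSO for 4, as for 20.1% of all genes. Groups could be apart without a sizeable change: ITGB1, with a change of 0.028, is among the 8. An unadjusted p under 0.05 was reached by 4 of the 10, ITGA2, ITGA3, ITGA5 and ITGB8, and by 9.34% of all genes. As deposited, 1 integrin gene was called higher and 6 were called lower, where 0.238% of all genes were called higher and 24.9% lower; among the 16688 genes above background on all 4 arrays, 31.5% were called lower. For ITGA1, ITGA5, ITGA6 and ITGB1 the change was above 0 after quantile normalization and below 0 as deposited.

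**Figure D3:**
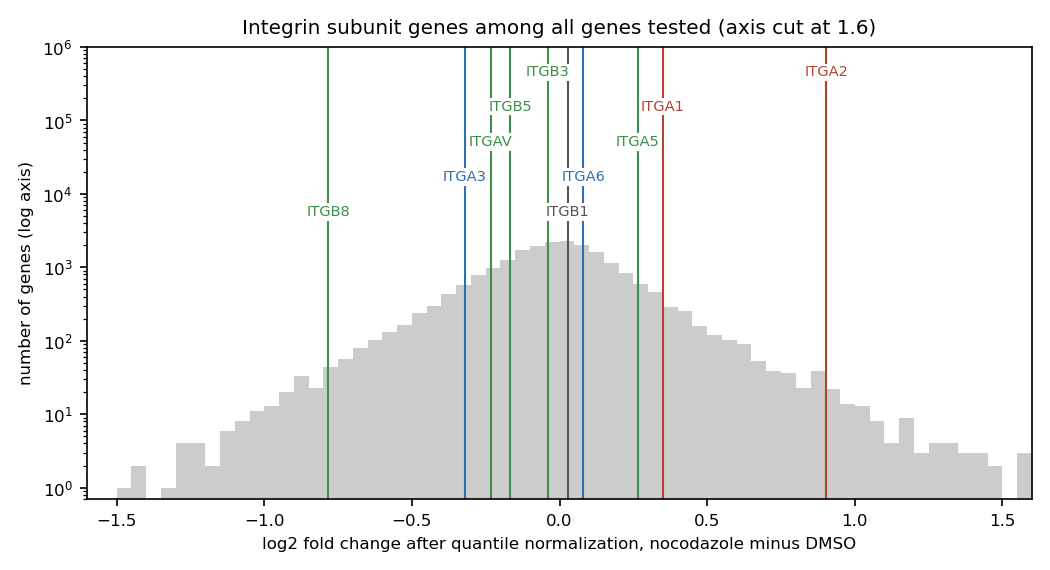
Distribution of quantile-normalized log2 fold changes, nocodazole minus DMSO (horizontal axis), over all genes tested (grey bars, counts on a log axis), with vertical lines at the 10 integrin genes, red for collagen-binding, blue for laminin-binding, green for RGD-binding and dark grey for ITGB1. ITGA2 at 0.90 and ITGB8 at -0.78 lie in the tails, and the other 8 genes lie between -0.32 and 0.35.

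The genes whose values followed ITGA2 most closely over the 4 arrays, by the smallest root mean square difference of mean-centred log2 values among 16687 other genes above background, were LINC01061, a non-coding RNA (difference 0.025), MMP9, a matrix metalloproteinase (0.033), and NPC1, a lysosomal cholesterol transporter (0.041). Their log2 fold changes were 0.93, 0.87 and 0.84. Closest to ITGB8 were E2F8, a cell-cycle transcription factor (0.019), KIF11, a mitotic kinesin (0.025), and PLAC8 (0.030), with log2 fold changes of -0.80, -0.76 and -0.82. With 4 arrays such likeness describes mainly the size of the nocodazole change.

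Around the 10 genes, 128 further genes in 8 lists were examined, and 1 of them passed on both scales. The counts given for each list stand against 9.34% of all genes with an unadjusted p under 0.05 after quantile normalization, and against 24.9% of all genes, or 31.5% of those above background on all arrays, called lower as deposited. Of 15 other integrin subunits with a row, 0 passed on either scale in limma and 0 had an unadjusted p under 0.05 after quantile normalization; their median log2 fold change was 0.049. The largest positive change among those above background was that of the leukocyte chain ITGAM, 0.22 ± 0.18, which was -0.21 as deposited, and the largest negative one that of ITGA4, a receptor chain for fibronectin and VCAM1, -0.38 ± 0.18 (limma adjusted p = 0.844 and 0.596).

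Inside the cell, talins and kindlins bind the beta tails and switch integrins on, and vinculin, paxillin, focal adhesion kinase and their partners link them to actin. Of 33 such activation and adaptor genes, 0 passed after quantile normalization, 7 had an unadjusted p under 0.05 in limma (9.34% of all genes), and 20 were called lower as deposited (24.9% of all genes); the median change was 0.0021. LPXN, which encodes the paxillin relative leupaxin, was at 7.67 and 7.81 with nocodazole and 6.46 and 7.15 with DMSO. Its change of 0.93 ± 0.22 was slightly larger than that of ITGA2, 0.90 ± 0.12, but its DMSO arrays lay further apart (limma adjusted p = 0.172). TNS3, which encodes the adhesion adaptor tensin 3, had the largest negative change, -0.55 ± 0.14 (limma adjusted p = 0.222).

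Of 8 integrin inactivators, 0 passed after quantile normalization, 1 had an unadjusted p under 0.05 in limma (9.34% of all genes) and 4 were called lower as deposited (24.9% of all genes). SPRY2, a feedback inhibitor of receptor signalling, had the largest positive change, 0.35 ± 0.14, and PTPN2, a tyrosine phosphatase, the largest negative one, -0.23 ± 0.12. Of 17 trafficking and glycosylation genes, 0 passed after quantile normalization, 0 had an unadjusted p under 0.05 in limma and 9 were called lower as deposited. Their changes ran from -0.24 for RAB11FIP1, an endosomal recycling adaptor, to 0.21 for RAB5A, a small GTPase of early endosomes. Of 14 tetraspanins and other membrane partners, 0 passed after quantile normalization, 4 had an unadjusted p under 0.05 in limma and 7 were called lower as deposited, beside the same all-gene shares. PLAUR, the urokinase receptor, had the largest positive change there, 0.41 ± 0.12 (-0.081 as deposited), and CAV1, the caveolar coat protein, the largest negative one, -0.36 ± 0.14.

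Among the ligands, 8 collagen chain genes had a median change of -0.17; 0 passed after quantile normalization, 2 had an unadjusted p under 0.05 in limma (9.34% of all genes) and 5 were called lower as deposited (24.9% of all genes). COL1A1, the main chain of bone collagen, was at 7.63 and 7.53 with nocodazole and 8.27 and 8.27 with DMSO, a change of -0.69 ± 0.12 that did not pass (limma adjusted p = 0.0686). With dim genes left out of the test it passed (limma adjusted p = 0.0443). COL1A2, the second chain of the same collagen, had the largest positive change, 0.062 ± 0.16. Of 7 laminin genes, 0 passed after quantile normalization, 1 had an unadjusted p under 0.05 in limma and 3 were called lower as deposited. LAMA1, at 7.30 and 7.32 with nocodazole and 6.54 and 6.94 with DMSO, had a change of 0.57 ± 0.16 (limma adjusted p = 0.272), and LAMB1 one of -0.19 ± 0.15.

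The list of ligands of RGD-binding integrins and their partners held 26 measured genes, 17 of them above background on all arrays. Of the 26, 1 fell (0.0978% of all genes) and 0 rose (0.149% of all genes). An unadjusted p under 0.05 in limma was reached by 8 (9.34% of all genes), and 9 were called lower as deposited (24.9% of all genes). The gene that fell was EDIL3, which encodes a secreted ligand of the ITGAV receptors. It was at 7.23 and 7.30 with nocodazole and 8.42 and 8.33 with DMSO, a change of -1.11 ± 0.12 (limma adjusted p = 0.0187). On median-centred arrays the EDIL3 change was -1.16 and did not pass (limma adjusted p = 0.322), nor did it pass without a variance trend or with any 1 array left out. SPP1, which encodes osteopontin, a bone matrix ligand of ITGAV with ITGB3, had the largest positive change, 0.92 ± 0.28, which did not pass (limma adjusted p = 0.314). Its DMSO arrays, at 5.29 and 6.24, were further apart than its nocodazole arrays, at 6.63 and 6.74. FN1, the fibronectin gene, chosen after its values were seen, was at 8.42 and 8.32 with nocodazole and 8.64 and 9.13 with DMSO. Its change was -0.52 ± 0.17 (limma adjusted p = 0.346). THBS1 and TNC, in the same list and also chosen after their values were seen, had changes of -0.75 ± 0.19 and 0.52 ± 0.15. Neither passed (limma adjusted p = 0.218 and 0.295).

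**Figure D4:**
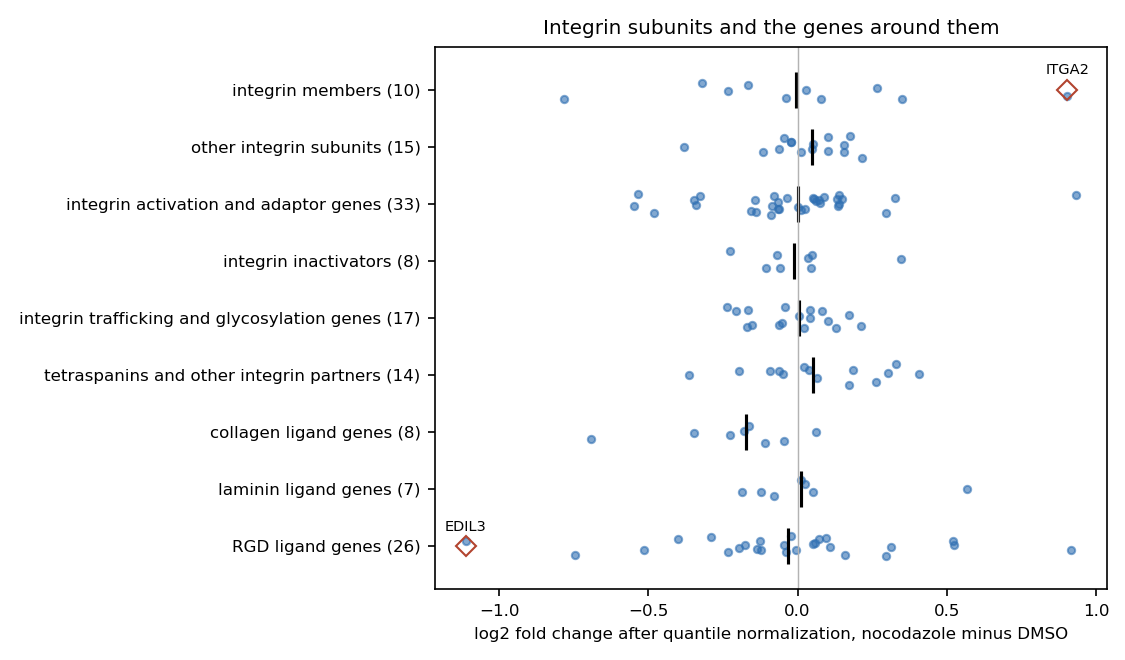
Quantile-normalized log2 fold change, nocodazole minus DMSO (horizontal axis), of each measured gene (points) in the 10 integrin genes and the 8 lists around them, with list medians as black bars and the number of measured genes in brackets. Diamonds mark ITGA2 and EDIL3, which passed on both scales.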

How the data were processed

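The deposited log2 values, 1 column per array, came from the authors' processing; the submitters' processing notes name Partek 7.0, RMA and the build hg19, and further settings are not named there. RMA and the range of the values, 0.50 to 14.3, give the log base. Of 65535 rows, 1530 control rows were left out, and 21771 of the other 64005 rows had 1 gene symbol, 1328 several and 40906 none. The 64005 rows were quantile-normalized (limma 3.58.1, R 4.3.3). Nocodazole minus DMSO was tested on 21469 genes with limma's lmFit and eBayes (variance trended on level, no replicate block). Tests were two-sided, with Benjamini-Hochberg adjustment over all genes. Each group had 2 samples, called biological replicates in the series text. With eBayes the spread between a gene's own samples is drawn toward a trend fitted over all genes. The standard errors and p-values thus rest partly on the other genes. The pipeline was tested on simulated data.

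The integrin genes, the lists, the rules and the alternatives were chosen with earlier results of these data known. The text names all 10 integrin genes, list genes that passed on both scales, and the largest positive and negative change of each list among genes above background on all arrays. Outside that rule, FN1, THBS1, TNC, ITGA7, ITGA10, ITGA11 and ITGB4 were named after their values were seen. Transcript positions are not given, since the RefSeq tables and the array use different builds. Alternatives were other scalings, the variance trend, dim genes, row choice, a replicate block and each array left out. The number of arrays limits the precision.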

Additional observations from a re-analysis of the deposited data

How the results depend on the processing

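The number of integrin genes called, 1 after quantile normalization, was 7 as deposited, 0 after median centring, 0 without a variance trend and 0 to 0 with each array left out in turn; it was 1 under the other alternatives, the replicate block included. All genes called numbered 60, against 5392 as deposited, 20 after median centring, 11 without a variance trend, 114 without dim genes, 230 with the replicate number as a block and 0 to 2 with an array left out, where 1 group is a single array assumed to vary like the other group. The 128 surrounding genes gave 1 call, against 57 as deposited, 0 after median centring, 0 without a variance trend, 2 without dim genes (EDIL3 and COL1A1), 3 with the replicate block (EDIL3, COL1A1 and LPXN) and 0 to 0 with an array left out. The class medians of 0.63 (collagen), -0.12 (laminin) and -0.17 (RGD) were 0.18, -0.61 and -0.66 as deposited, where the array-wide shift enters; with an array left out they ran from 0.53 to 0.73, from -0.22 to -0.028 and from -0.25 to -0.082. Signs turned for ITGA1 (-0.066), ITGA5 (-0.22), ITGA6 (-0.41) and ITGB1 (-0.47) as deposited, for ITGB1 after median centring (-0.057) and with the mean of its rows (-0.084), and for ITGA6 without DMSO replicate 2 (-0.076; it was up to 0.23 with another array left out). With the replicate block ITGA2 still passed (limma adjusted p = 0.0258). Deviations of same-numbered arrays from their group means correlated over all genes at 0.22 after quantile normalization and 0.41 as deposited; the labels do not say that a number marks a shared batch, and the samples were not treated as pairs. The cause of these differences was not tested.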
